A study of Mus musculus with 6 samples.

Results

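The genes examined are 10 genes that make or remove reactive oxygen species: Nox4, Cyba, Hmox1, Nqo1, Gclc, Gclm, Txnrd1, Srxn1, Sod3 and Gpx3. They were chosen by name, and every probe set annotated with exactly 1 of these symbols was taken, which gave 19 of the 45101 probe sets on the array and 10 of the 18194 genes with a symbol. The value of a gene is that of its brightest probe set over the 6 arrays, as log2 of the intensity. The study sorted cells from the left ventricle of adult male Black Swiss mice aged 8 to 10 weeks, 1 week after transverse aortic constriction (TAC; 3 mice) or a sham operation (3 mice). TAC narrows the aorta and overloads the left ventricle with pressure. The 6 groups have 1 Affymetrix array each: Tie2cre lineage traced fibroblasts after TAC and after sham, fibroblasts not traced by Tie2cre after TAC and after sham, and endothelial cells after TAC and after sham. Tie2cre is a Cre recombinase driven by the Tek promoter, which is active in endothelial cells and in part of the blood lineage, so tracing marks cells with a Tek-expressing ancestor and not a single cell type. The sources used here name no reporter allele and do not say whether the 3 mice of a surgery were pooled or gave cells to all 3 sorts.

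All 10 genes lay above the median of at least 1 array and count as detected, so none was lost to the filter on dim genes. The sorted cells carried the markers of their labels, though not these alone. All 10 fibroblast markers lay above the array median on each fibroblast array, with a median log2 level of 13.03 to 13.58, and the 10 endothelial markers had a median of 12.95 on the endothelial TAC array and 13.26 on the endothelial sham array, against 6.36 to 7.75 on the fibroblast arrays. Among the endothelial markers, Tek was also high on the fibroblast arrays, 10.70 to 11.91, against 12.38 and 12.63 in endothelial cells after TAC and sham. Summed markers of mural cells were 12752 and 15360 in endothelial cells after TAC and sham, against 2714 to 4984 on the fibroblast arrays. Summed cardiomyocyte markers were 4886 and 9971 in endothelial cells after TAC and sham, against 1156 to 1643. Summed macrophage markers were 1863 and 1100 in endothelial cells after TAC and sham, against 1082 to 2127 on the fibroblast arrays. Among these Cx3cr1 stood at 9.94 and 9.09 in traced and untraced sham fibroblasts and at 5.84 in sham endothelial cells. The endothelial TAC array stood apart. Its summed intensity over the 10 fibroblast markers was 47051, against 3249 on the endothelial sham array and 103010 to 116613 on the fibroblast arrays. The summed level of 7 proliferation markers was 7926 to 17732 on the TAC arrays and 955 to 1031 on the sham arrays. Signal for 18S ribosomal RNA was lowest on the untraced TAC array, 12.04, where the remaining arrays had 14.11 to 14.64. The bioB spike-in ranged over 8.78 to 9.42 in fibroblast samples and was 11.19 after TAC and 11.36 after sham in endothelial samples. In cells sorted in bulk, fewer cells of a type and less RNA per cell cannot be told apart.

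NADPH oxidases are membrane enzymes that pass electrons from NADPH to oxygen. NOX4 differs from the phagocyte enzyme in being active without cytosolic activators and in releasing mainly hydrogen peroxide, and it is known in fibroblasts as a gene induced by TGF-beta. The transcription factor NRF2, product of Nfe2l2, is held low by KEAP1 and, when released by oxidants or electrophiles, binds antioxidant response elements with small MAF proteins and raises enzymes of glutathione and thioredoxin metabolism, while BACH1 represses the same elements. Extracellular superoxide dismutase and the secreted glutathione peroxidase work outside the cell.

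The first question is how the 10 genes stood in fibroblasts relative to endothelial cells. The secreted enzymes Sod3 and Gpx3 were higher in fibroblasts and passed the test, and Nox4, also higher on every fibroblast array, did not pass. The 6 NRF2 targets and Cyba did not pass, and their mean differences lay between -0.38 for Gclc and 0.91 for Srxn1. Traced and untraced arrays of 1 surgery were averaged first, which left 2 values per cell type, and calling a gene took both a 2-fold difference and a limma p-value under 0.05 after Benjamini-Hochberg adjustment. On this rule 2 of the 10 genes were called, both higher in fibroblasts, where 11.5% of the 12257 detected genes were higher in fibroblasts, 6.50% were lower and 18.0% were called in all. Within 1 surgery, 3 of the 10 genes (Nox4, Sod3 and Gpx3) were at least 2-fold higher on both fibroblast arrays after TAC, where 15.8% of detected genes were higher and 8.31% lower. At sham 4 genes were, with Srxn1 added, where 20.5% were higher and 9.06% lower. No gene of the 10 was 2-fold lower at either surgery.

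Gpx3, which encodes a selenium-containing glutathione peroxidase of extracellular fluid, stood at 13.86 and 14.16 in traced fibroblasts after TAC and sham, at 13.85 and 14.17 in untraced fibroblasts, and at 11.58 and 9.43 in endothelial cells. The 4 fibroblast arrays stayed within 0.32 of each other and lay above both endothelial arrays. The mean difference was 3.51 (standard error 0.747, limma adjusted p = 0.0413), an 11.4-fold higher level in fibroblasts. It narrowed to 2.28 after TAC, against 4.73 at sham. With no filter on dim genes the adjusted p of Gpx3 was 0.0524 and the call was lost.

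Sod3, the superoxide dismutase bound to the extracellular matrix, stood at 12.36 and 12.67 in traced fibroblasts after TAC and sham, at 12.12 and 12.48 in untraced fibroblasts, and at 9.55 and 8.67 in endothelial cells. Fibroblast and endothelial arrays did not overlap. The mean difference of 3.30 had a standard error of 0.377 (limma adjusted p = 0.0114), a 9.86-fold higher level in fibroblasts, and Sod3 was called under all 14 alternatives run. Its other probe set gave 3.46.

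Nox4 stood at 10.23 and 8.55 in traced fibroblasts after TAC and sham, at 9.99 and 8.68 in untraced fibroblasts, and at 6.89 and 4.26 in endothelial cells. Every fibroblast array lay above both endothelial arrays, and within each population the TAC array was the higher. The mean difference between the cell types was 3.79 (standard error 1.02, limma adjusted p = 0.0696) and did not pass. The other Nox4 probe set gave 2.46. The Nox4 value lay above those of Sod3 and Gpx3 for the brightest probe set, but below both with the mean of all probe sets (3.13) and with 32 added to the intensities (2.98), and below Sod3 without the endothelial sham array (2.47). The gap was 3.22 after TAC and 4.35 at sham. The spread behind the p-value is that between TAC and sham within each cell type, 1.50 in fibroblasts and 2.63 in endothelial cells for Nox4. Nox4 was called with surgery as a block (adjusted p = 0.00145), with the 6 arrays fitted singly (0.0115), without the endothelial TAC array (0.0311) and with 32 added to the intensities (0.0474). Its endothelial sham value lay at percentile 13.1 of that array, so the size of the sham gap rests on a dim value.

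Cyba encodes the membrane subunit that stabilises NOX4 and other oxidase catalytic subunits. It had a level of 10.78 in traced fibroblasts after TAC and 11.03 at sham, 10.52 and 11.09 in untraced fibroblasts, and 11.47 and 10.92 in endothelial cells. The cell types overlapped, and the difference of -0.34 (standard error 0.311, limma adjusted p = 0.478) did not pass.

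**Figure D1:**
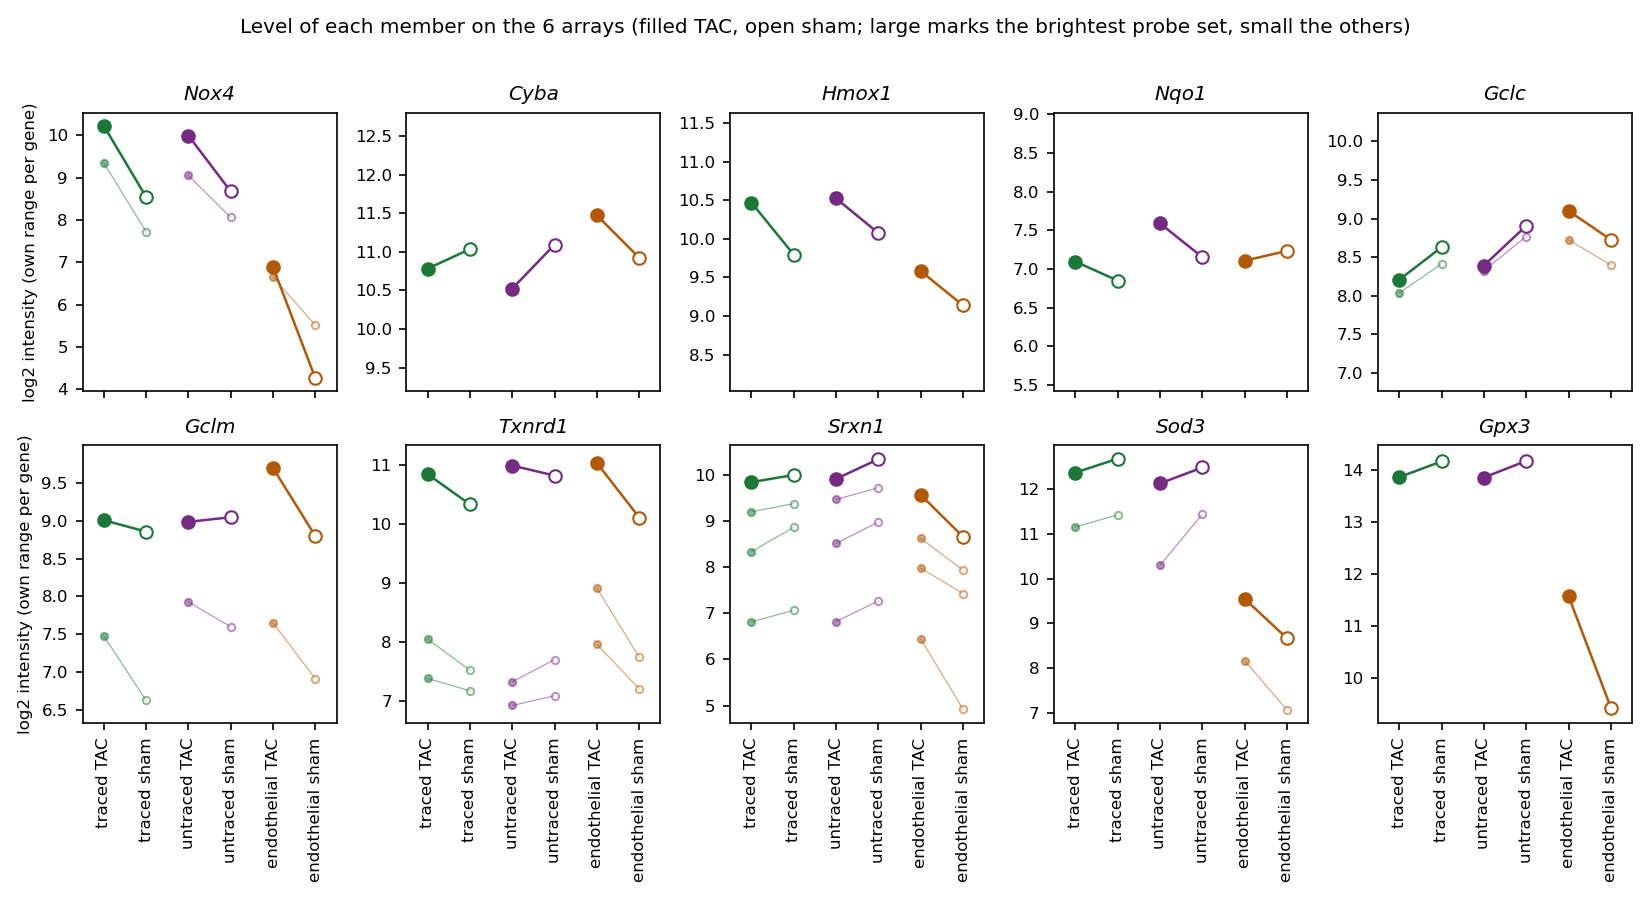
Log2 intensity (vertical, own range for each gene) of the 10 genes on the 6 arrays (horizontal), with TAC arrays filled and left of the open sham arrays, large points for the brightest probe set, small points for the other probe sets, and a line joining the 2 surgeries of a population. Nox4, Sod3 and Gpx3 were higher on the 4 fibroblast arrays than on both endothelial arrays, and the other genes show overlapping or smaller gaps.

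Among the NRF2 targets, Hmox1, which encodes the inducible enzyme that breaks down haem, came nearest to a cell type difference shared by both surgeries. It had 10.47 and 9.79 in traced fibroblasts after TAC and sham, 10.52 and 10.07 in untraced fibroblasts, and 9.58 and 9.14 in endothelial cells. Every fibroblast array lay above both endothelial arrays, though the traced sham and endothelial TAC values were close, and the mean difference of 0.86 (standard error 0.319) had a limma adjusted p of 0.136. Srxn1, whose product sulfiredoxin restores overoxidised peroxiredoxins, had 9.84 and 9.99 in traced fibroblasts after TAC and sham, 9.91 and 10.34 in untraced fibroblasts, and 9.56 and 8.66 in endothelial cells. All fibroblast values again lay above the endothelial ones, and the difference of 0.91 (standard error 0.380, limma adjusted p = 0.168) was 0.31 after TAC and 1.51 at sham. All 4 Srxn1 probe sets were higher in fibroblasts, by 0.91 to 1.31.

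The 4 remaining targets overlapped between the cell types. The share of all detected genes without such overlap was not counted. The separation of the arrays in Nox4, Sod3, Gpx3, Hmox1 and Srxn1 therefore has no such share beside it. Of these genes Nox4, Hmox1 and Srxn1 did not pass the test. Gclc and Gclm encode the catalytic and the modifier subunit of glutamate-cysteine ligase, the rate-limiting enzyme of glutathione synthesis. Gclc differed by -0.38 (standard error 0.291, limma adjusted p = 0.401) and Gclm by -0.27 (standard error 0.365, limma adjusted p = 0.63), and in both genes the difference was near 0 at sham, 0.04 and 0.15, and negative after TAC, -0.80 and -0.70. The other Gclm probe set did not share this sign, with 0.13 overall and 0.05 after TAC. Txnrd1, which encodes the cytosolic thioredoxin reductase, differed by 0.18 (limma adjusted p = 0.776), with its 3 probe sets spread from -0.68 to 0.18. Nqo1, a quinone reductase gene often used as a readout of NRF2, differed by 0.00 (standard error 0.246, limma adjusted p = 0.997), with 0.24 after TAC and -0.23 at sham. Nqo1 lay between percentiles 50.3 and 59.0 of the arrays, near their medians.

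**Figure D2:**
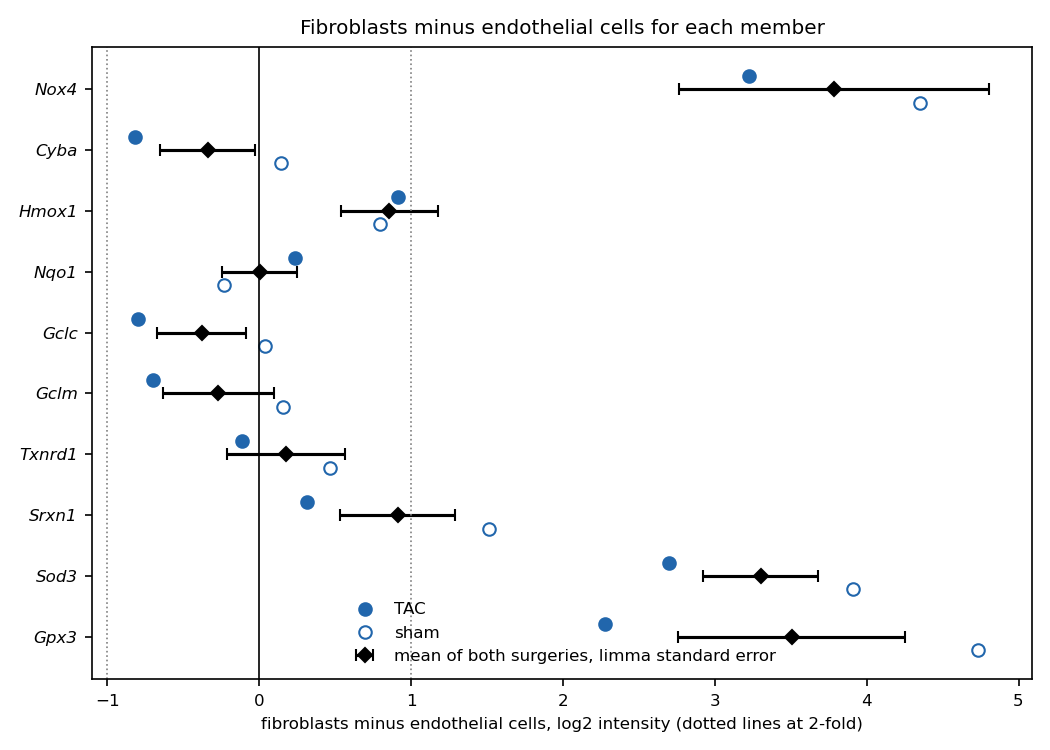
Fibroblasts minus endothelial cells in log2 intensity (horizontal) for each gene (vertical), with filled points for TAC, open points for sham, and diamonds with bars for the mean of both surgeries and its limma standard error (2 values per cell type). Nox4, Sod3 and Gpx3 sit at 3.30 to 3.79, and the TAC point lies left of the sham point for 8 of the 10 genes, all but Hmox1 and Nqo1. The median over all detected genes was 0.14 after TAC and 0.28 at sham, and the share of them with this order was not counted.

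Of the 6 NRF2 targets, Srxn1, Gclm, Txnrd1 and Nqo1 have promoter entries in the RefSeq-derived table (build GRCm38.p6), as do Nox4, Cyba and Gpx3. These 7 genes have 9 windows of 250 bases before and 50 after a start. Each window was searched on both strands for the core of the antioxidant response element, TGACNNNGC, to which NRF2 binds, and for the AP-1 site TGANTCA. The 2 motifs can share letters, and in these windows no matches to these exact patterns overlapped. The Srxn1 AP-1 match at -45 to -39 is followed by gc and so reads TGAGTCAGC. It differs from the core by G in place of C, and core forms with that G were not searched. The core was found in 3 of the 9 windows, in Srxn1, Gclm and 1 of the 3 Txnrd1 starts, against 12.4% of all 32851 promoter windows. The AP-1 site was found in 1 of the 9, in Srxn1 and there at 2 places, against 7.81% of all windows. Neither motif was found in the windows of Nox4, Cyba, Gpx3 or Nqo1. The stretches below are shown because they set the targets with a core match beside Nqo1, the target with none in these windows. Bases beyond the windows were not searched. They are written on the strand of the gene with matches in capitals, and all 3 core matches read on the opposite strand, so that they appear as GCNNNGTCA.
Gclm, chr3:122245398-122245456, + strand, positions -159 to -101 from the start: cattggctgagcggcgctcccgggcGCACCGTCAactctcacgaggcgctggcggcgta
Txnrd1, chr10:82859089-82859147, + strand, positions -117 to -59 from the start: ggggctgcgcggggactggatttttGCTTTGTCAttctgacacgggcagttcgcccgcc
Srxn1 with both AP-1 sites, chr2:152105397-152105510, + strand, positions -127 to -14 from the start: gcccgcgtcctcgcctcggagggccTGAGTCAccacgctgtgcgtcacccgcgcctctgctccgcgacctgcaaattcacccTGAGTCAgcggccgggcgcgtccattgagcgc
Srxn1 with the core, chr2:152105542-152105571, + strand, positions 19 to 48 from the start: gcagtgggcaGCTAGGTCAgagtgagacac
Nqo1, chr8:107403206-107403265, - strand, the 60 bases before the start: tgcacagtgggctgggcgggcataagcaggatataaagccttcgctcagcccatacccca

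A match is a run of letters and not a measured site. The 3 genes with a core match in these windows did not share 1 pattern over the arrays: their TAC differences in traced and untraced fibroblasts were 0.15 and -0.06 for Gclm, 0.51 and 0.17 for Txnrd1, and -0.15 and -0.43 for Srxn1. In endothelial cells their brightest probe sets gave 0.90, 0.92 and 0.91, and all their probe sets 0.55 to 1.52. Sod3, which has no entry in the promoter table, had 0.88 there.

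The second question is how the genes differed between TAC and sham in fibroblasts. Nox4 was the only 1 of the 10 genes that stood at least 2-fold higher after TAC in both fibroblast populations, and 0 stood at least 2-fold lower, where 4.33% of 11623 detected genes were higher and 1.79% lower by this rule. Nox4 was 1.68 higher in traced and 1.32 higher in untraced fibroblasts, or 3.20-fold and 2.50-fold. Its other probe set gave 1.63 and 0.99. The remaining 9 genes lay between -0.57 for Cyba in untraced and 0.67 for Hmox1 in traced fibroblasts. With 1 array per group these differences have no replicate check and were not tested. The same 1 gene was counted in traced and in untraced fibroblasts taken alone.

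Hmox1 was the next highest, 0.67 higher after TAC in traced and 0.45 in untraced fibroblasts. The 6 NRF2 targets did not share a direction. Hmox1, Nqo1 (0.25 and 0.44) and Txnrd1 were higher in both populations, Gclc (-0.42 and -0.51) and Srxn1 were lower in both, and the brightest Gclm probe set was near 0. The other Gclc probe set gave -0.38 and -0.44, and all 4 of Srxn1 were lower after TAC in both populations, by -0.53 to -0.15. The other Gclm probe set was higher after TAC by 0.85 in traced and 0.33 in untraced fibroblasts. The other 2 Txnrd1 probe sets were lower after TAC in untraced fibroblasts, by -0.38 and -0.16. The median of the 6 targets was 0.19 for the mean of both populations, beside 0.05 for all detected genes.

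Cyba and the secreted enzymes were slightly lower after TAC. Cyba had -0.25 in traced and -0.57 in untraced fibroblasts, Sod3 -0.31 and -0.36, and Gpx3 -0.30 and -0.32. The other Sod3 probe set gave -0.27 in traced and -1.14 in untraced fibroblasts, where the TAC array is the one with low 18S ribosomal RNA. The part of that array's RNA in the Sod3 value was not tested. Over all 10 genes the median TAC difference was 0.00 in traced and -0.19 in untraced fibroblasts, beside 0.08 and 0.02 for all detected genes.

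**Figure D3:**
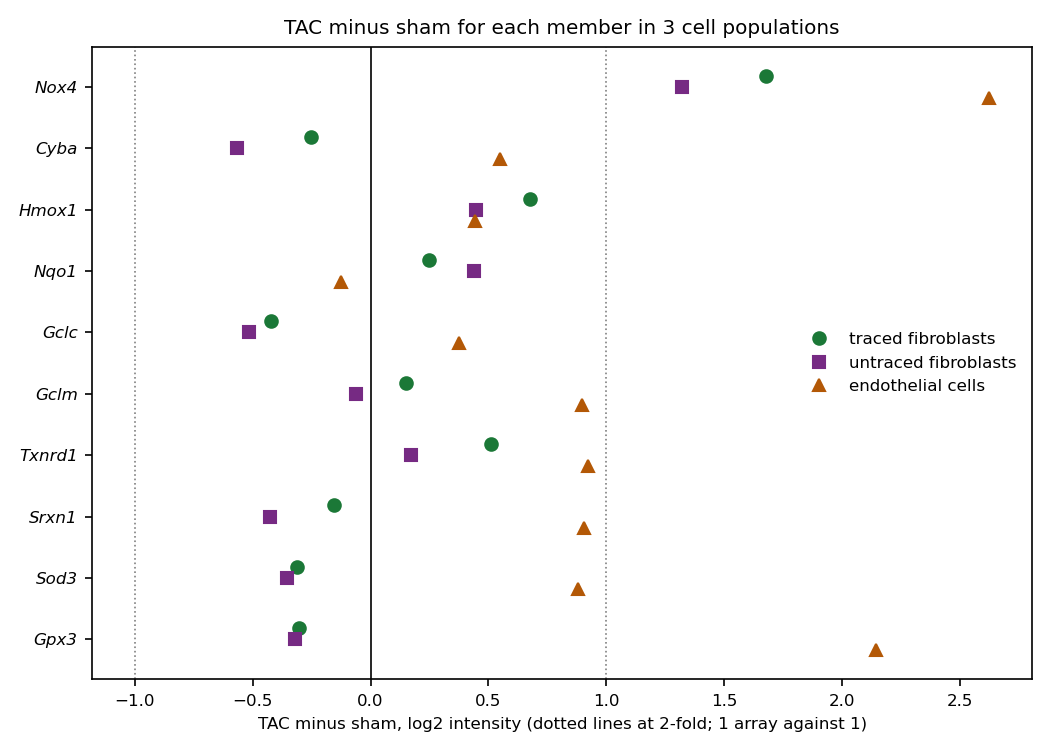
TAC minus sham in log2 intensity (horizontal) for each gene (vertical), with circles for traced fibroblasts, squares for untraced fibroblasts and triangles for endothelial cells, 1 array against 1 each. Nox4 lies beyond the dotted 2-fold line in all 3 populations, Gpx3 in endothelial cells only, and 9 of the 10 triangles lie right of 0. The endothelial median over all detected genes was 0.18, and the share of them right of 0 was not counted.

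The third question is how the genes differed between TAC and sham in endothelial cells. There 9 of the 10 genes stood higher after TAC, with a median of 0.89 beside 0.18 for the 11157 detected genes. The share of those detected genes that stood higher was not counted. Nox4 (2.63) and Gpx3 (2.15, or 4.42-fold) were at least 2-fold higher and 0 were at least 2-fold lower, where 10.9% of detected genes were higher and 1.83% lower. Nox4 was thus at least 2-fold higher in all 3 populations, which held for 2.33% of 12257 genes. The endothelial Nox4 value has no firm size, since the sham array stood at percentile 13.1 and the TAC array at 50.5, and it was 1.55 with 32 added to the intensities. The endothelial count was 1 with the mean of all probe sets and with genes above the upper quartile. Txnrd1, Srxn1, Gclm and Sod3 followed at 0.92, 0.91, 0.90 and 0.88, just inside 2-fold, and Cyba, Hmox1 and Gclc at 0.55, 0.45 and 0.37. Nqo1 had -0.13. For 6 of the 10 genes both fibroblast populations had one sign and endothelial cells the other, which held for 24.0% of 12257 detected genes. The second probe sets gave 1.14 for Nox4, 1.10 for Sod3 and 0.74 for Gclm, and the other Txnrd1 and Srxn1 probe sets gave 0.55 to 1.52.

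Markers of fibroblasts also differed between the endothelial arrays. On the endothelial TAC array 10 of 10 fibroblast markers were higher than on the endothelial sham array, by 1.10 for Pdgfra to 5.55 for Postn. Expressed as a share of the mean intensity in TAC fibroblasts, the endothelial increase amounted to 5.16% for Pdgfra, 5.92% for Ddr2, 8.18% for Tcf21, 36.3% for Dcn and 61.5% for Col3a1. On the same scale it was 7.02% for Sod3, 8.94% for Nox4, 14.1% for Hmox1, 16.0% for Gpx3 and 37.5% for Srxn1. It was 39.7% for Gclc, 51.1% for Txnrd1, 55.6% for Cyba and 75.1% for Gclm, and -7.73% for Nqo1, which was lower after TAC. The part of fibroblast RNA in the endothelial differences was not tested.

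The fourth question is whether fibroblasts traced by Tie2cre differed from untraced ones in these genes. No gene of the 10 differed 2-fold at either surgery, and the share of all detected genes without such a difference was not counted. By the stricter rule of at least 2-fold in the same direction at both surgeries, 0 of the 10 genes and 0.0688% of 11623 detected genes counted. The differences lay between -0.49 for Nqo1 and 0.26 for Cyba after TAC, and between -0.49 for Txnrd1 and 0.20 for Sod3 at sham. Nqo1 was lower in traced fibroblasts at both surgeries (-0.49 and -0.30 after TAC and at sham), as were Txnrd1 (-0.14 and -0.49), Srxn1 (-0.07 and -0.34), Gclc (-0.18 and -0.28) and Hmox1 (-0.05 and -0.28). Sod3 was higher at both (0.24 and 0.20). Other probe sets differed in sign: those of Txnrd1 were 0.73 and 0.46 after TAC, and that of Sod3 was -0.02 at sham. The other Gclm probe set was -0.45 after TAC and -0.97 at sham, where the brightest gave 0.02 and -0.19. Nox4 stood at 0.23 after TAC and -0.13 at sham. At sham 9 of the 10 genes were lower in traced fibroblasts, with a median of -0.23 beside -0.11 for all detected genes. The share of all detected genes that were lower there was not counted.

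The genes around these enzymes were taken from 7 further lists. For the counts below, the shares of all detected genes after TAC were 4.33% higher and 1.79% lower in fibroblasts. In endothelial cells they were 10.9% and 1.83%. Between cell types 11.5% were called higher in fibroblasts and 6.50% lower. Of 6 other oxidase genes detected in fibroblasts 0 were at least 2-fold higher after TAC in both populations and 2 were lower, beside 4.33% and 1.79% of all detected genes: Xdh, the xanthine oxidoreductase gene, by -1.98 in traced and -1.46 in untraced fibroblasts, and the dual oxidase gene Duox1 by -1.43 and -1.02. Xdh was also lower after TAC in endothelial cells (-1.84). Duox1 (3.06, limma adjusted p = 0.0249) and its maturation factor Duoxa1 (4.15, limma adjusted p = 0.0101) were higher in fibroblasts than in endothelial cells. The phagocyte oxidase genes Cybb, Ncf1 and Ncf4 did not lie above the median of any array.

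Of 11 detected regulators of NRF2 0 were called between cell types and 0 reached 2-fold between surgeries in either cell type. Nfe2l2 was -0.52 and -0.26 in traced and untraced fibroblasts after TAC, Keap1 was 0.23 and -0.08, and the repressor gene Bach1 was 0.73 and 0.76 higher, beside -0.46 in endothelial cells. Rbx1, a subunit of the ubiquitin ligase that KEAP1 directs to NRF2, was -0.67 and -0.60. Its TAC values in traced and untraced fibroblasts, 6.37 and 6.31, lay below the array medians of 6.74 to 6.85. The median of the 11 was -0.10 in fibroblasts and 0.11 in endothelial cells.

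Of 17 other detected NRF2 targets 0 were at least 2-fold higher after TAC in both fibroblast populations and 2 were lower, both glutathione transferase genes: Gsta3 by -2.51 and -2.78 and Gstm1 by -1.51 and -1.63 in traced and untraced fibroblasts. Their median TAC difference was -0.28, beside 0.05 for all detected genes. Between cell types 6 of the 17 were higher in fibroblasts and 0 lower, beside 11.5% and 6.50% of all detected genes: Gsta3 (4.35, limma adjusted p = 0.0404), the malic enzyme gene Me1 (3.76), the UDP-glucose dehydrogenase gene Ugdh (2.49), the carbonyl reductase gene Cbr3 (2.48), Gstp1 (1.61) and Ephx1 (1.47). In endothelial cells Cbr3, Ugdh and Gsta4 were 1.12, 1.08 and 1.07 higher after TAC. These were 3 of 15 targets detected there, and 0 were at least 2-fold lower, beside 10.9% and 1.83% of all detected genes.

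Of 12 glutathione genes detected in fibroblasts, 1 was at least 2-fold higher and 2 lower after TAC, beside 4.33% and 1.79% of all detected genes. Gsto1, an omega class glutathione transferase gene, was higher by 1.58 in traced and 2.05 in untraced fibroblasts, and the gamma-glutamyltransferase family gene Ggt5 (-2.53 and -2.74) and Gstt1 (-1.68 and -1.53) were lower. Gpx8, a glutathione peroxidase of the endoplasmic reticulum, was higher in fibroblasts than in endothelial cells (3.57, limma adjusted p = 0.0348), as its secreted relative Gpx3 was. In endothelial cells Gpx8 (2.01), Gsto1 (1.51) and Gpx7 (1.12) were at least 2-fold higher after TAC and Gstt1 lower (-1.16). These were 3 higher and 1 lower of 12 genes, beside 10.9% and 1.83% of all detected genes. In the thioredoxin list 0 of 10 genes reached 2-fold between surgeries in fibroblasts, and the 2 largest were the peroxiredoxin gene Prdx4 (0.71 and 0.99) and the thioredoxin inhibitor gene Txnip (-0.67 and -0.65). Prdx4 was 1.39 higher after TAC in endothelial cells. Sesn3 was higher in fibroblasts than in endothelial cells (3.11, limma adjusted p = 0.012).

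In the list of superoxide and hydrogen peroxide removal, Sod1, Sod2, Cat and Ccs stayed within 2-fold between surgeries in every population. Ccs had -0.07 and -0.56 in traced and untraced fibroblasts, and 0 of the 4 genes were called between cell types. In the list of haem, iron and metallothionein genes 0 of 10 were at least 2-fold in both fibroblast populations, and the transferrin receptor gene Tfrc, with 1.54 and 0.88, came nearest. Its sham values in traced and untraced fibroblasts, 4.97 and 6.01, lay below the array medians of 6.74 to 6.85, so these sizes rest on dim values. The iron exporter gene Slc40a1 (3.05, limma adjusted p = 0.02) and ceruloplasmin, Cp (4.23, limma adjusted p = 0.0299), were higher in fibroblasts. In endothelial cells Mt2 (2.89), Cp (2.25) and Tfrc (1.39) were at least 2-fold higher after TAC, on the array with the higher fibroblast markers. These were 3 of 9 genes of the list detected there, and 0 were lower, beside 10.9% and 1.83% of all detected genes.

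**Figure D4:**
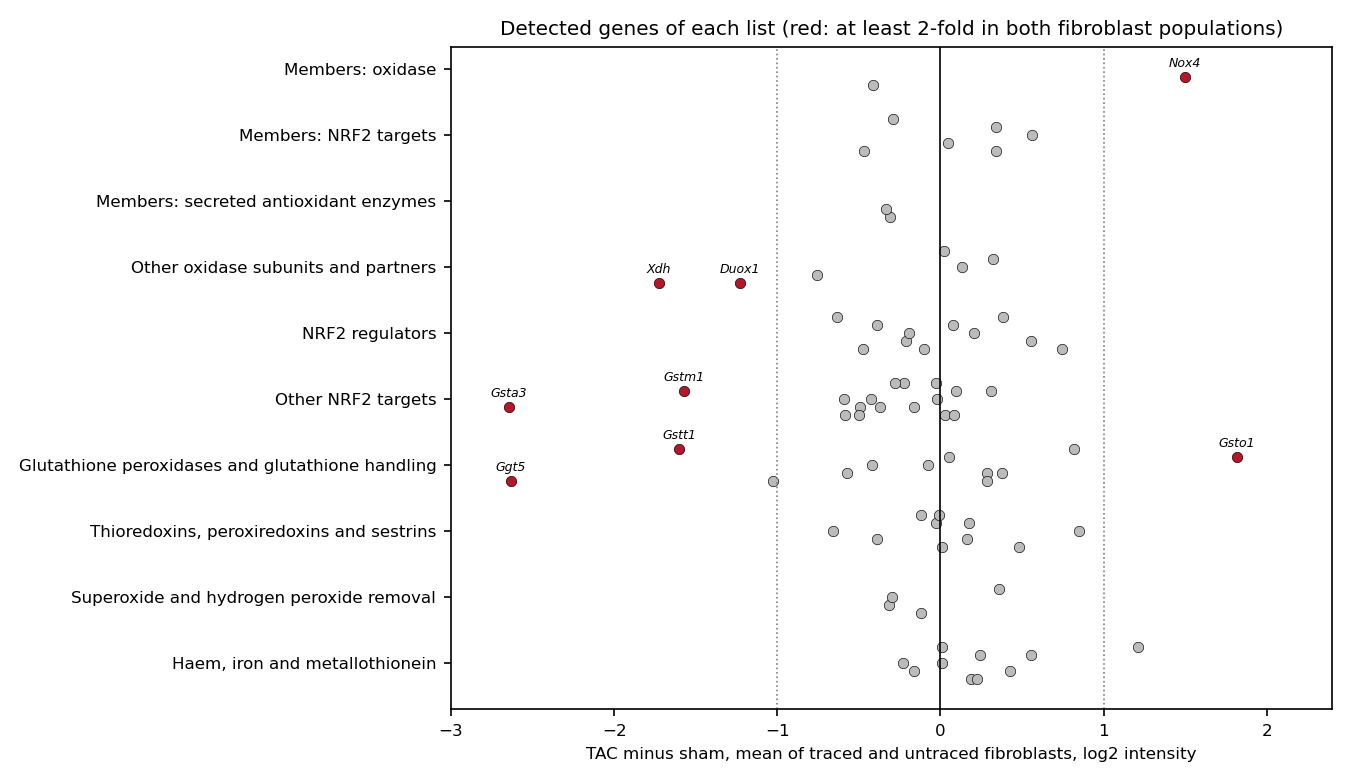
TAC minus sham as the mean of traced and untraced fibroblasts in log2 intensity (horizontal) for each detected gene of the 10 genes examined, in 3 rows, and of 7 further lists (vertical), with red points for genes at least 2-fold in the same direction in both populations. Nox4 and Gsto1 are the red points above 0, at 1.50 and 1.82, and Gsta3, Ggt5, Xdh, Gstt1, Gstm1 and Duox1 those below 0.

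Of the 10 genes 5 spanned at least 1 on the log2 scale over the 6 arrays, and for these the most similar of 6756 other detected genes with such a span were found by Pearson correlation over the 6 arrays, as a description with no test. The 4 fibroblast arrays and the 2 endothelial arrays form 2 groups that these correlations share. For Nox4 the closest were Socs2 (0.9994), Fkbp11 (0.9993) and Loxl3 (0.9987). For Sod3 they were Tafa5, Ccl7 and Egfr (0.9990 each), and for Gpx3 Pmp22 (0.9997), Abhd14a (0.9996) and Sdc2 (0.9991). For Hmox1 they were Gpn2 (0.9991), Fggy (0.9986) and Cyb561d2 (0.9983), and for Srxn1 Slc12a9 (0.9981), Dnajc3 (0.9965) and Dbt (0.9954).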

How the data were processed

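RNA from sorted cells, 200 ng per sample per the labels' protocols, was hybridised to 6 Affymetrix mouse arrays, 1 per group. The authors deposited probe set intensity values on a linear scale between 3.82 and 37205. Per the submitters' processing notes they were made with RMA, which subtracts background, normalizes between arrays and shrinks differences of dim probe sets. Its version was not given in the sources used here. That RMA output was returned from log2 to a linear scale is inferred from the values. Precision is limited by the number of arrays, and RMA has no detection call. Log2 of the intensity was taken with no further normalization.

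Probe sets with exactly 1 symbol (34958; 932 had several and 9211 were unlisted) were named from the platform annotation, with symbols updated by gene identifier (99.4% found). A gene was represented by its brightest probe set and was detected when above the array median on at least 1 array compared. The 10 genes and the lists were chosen with earlier results of these data known. From the other lists, up to 4 called genes per comparison were named, or the 2 largest fibroblast TAC differences where none was called, with a few more, including the phagocyte genes and Keap1, chosen after their values were seen. For the cell types, limma 3.58.1 (lmFit, eBayes; R 4.3.3) was run over 12257 detected genes. Nothing says that samples came from separate mice, so its p-values reflect the spread of these samples alone, here 2 surgeries, which may be technical. The same fit was also run on simulated data that took means and spread from the real fit. Noise was independent on each array there, so a TAC difference shared by both fibroblast populations was not simulated. Comparisons of surgery and lineage set 1 array against 1 and were not tested. Percentages beside counts are shares of all detected genes. The alternatives changed the probe set rule, scaling, filter, fit and arrays. No pair of arrays held identical values (0 pairs).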

Additional observations from a re-analysis of the deposited data

Results flagged for a closer look

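For 6 of the 10 genes, both fibroblast populations stood on one side of 0 between TAC and sham and endothelial cells on the other, as did 24.0% of 12257 detected genes. The differences are log2 TAC minus sham in traced fibroblasts, untraced fibroblasts and endothelial cells. Cyba had -0.25, -0.57 and 0.55. Gclc had -0.42, -0.51 and 0.37. Srxn1 had -0.15, -0.43 and 0.91. Sod3 had -0.31, -0.36 and 0.88, and Gpx3 had -0.30, -0.32 and 2.15. Nqo1 ran the other way, with 0.25, 0.44 and -0.13. The difference between the responses was not tested, since each group has 1 array. The endothelial TAC array also had 10 of 10 fibroblast markers higher than the endothelial sham array, and their part in these values was not tested.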

How the results depend on the processing

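No paired analysis was possible because every group carries the same single replicate number, other than pairing the cell types by surgery, which is the fit with surgery as a block. Among the 10 genes, 1 was counted as at least 2-fold in both fibroblast populations under each of 7 alternatives, and 1 in the population kept when traced or untraced arrays were left out, and 0 genes differed by lineage under all 7. In endothelial cells the count of 2 became 1 with the mean of all probe sets and 1 with genes above the upper quartile. Between cell types the count of 2 became 1 with no filter on dim genes. It became 3, with Nox4 added, with surgery as a block, with the 6 arrays fitted singly and with 32 added to the intensities. Over all genes, 3412 were called between cell types with surgery as a block and 1099 without the endothelial sham array, against 2212. With genes above the upper quartile only, which tests fewer genes, 395 genes counted in fibroblasts (711 before) and 750 in endothelial cells (1417 before). The lineage count of 8 became 4 with the mean of probe sets, 2 with 32 added, 5 with median centring, 13 with no filter and 3 above the upper quartile. Fibroblast minus endothelial turned sign for Nqo1 (-0.062 without the endothelial TAC array, -0.20 without untraced arrays, -0.032 after quantile normalization), Gclm (0.18 without the endothelial TAC array) and Txnrd1 (-0.29 without the endothelial sham array, -0.31 with the mean of probe sets). None of these 3 genes was called. The cause of these changes was not tested.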

Other observations

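The core of the antioxidant response element, searched as above, occurred near at least 1 start of 14.0% of the 27025 genes with a promoter entry. It occurred in 6 of 18 other NRF2 targets with an entry (G6pdx, Pgd, Me1, Gsta3, Ugdh and Prdx1), in 4 of 11 NRF2 regulators (Nfe2l2, Mafg, Mafk and Maff) and in 0 of 10 other oxidase genes. It occurred in 3 of 8 haem, iron and metallothionein genes, 1 of 3 genes of superoxide and hydrogen peroxide removal, and 1 of 11 genes in each of the glutathione and thioredoxin lists. Of the genes with a match, Gsta3 stood 6.26-fold lower after TAC on average in fibroblasts, while Maff was 0.29 and 0.48 higher in traced and untraced fibroblasts.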
